A study of Rattus norvegicus with 6 samples.

Results

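A set of 9 genes that move, make, remove or sense adenosine was followed in the neuroretina of diabetic rats: the nucleoside transporter genes Slc29a1, Slc29a2 and Slc29a3, the adenosine receptor genes Adora1, Adora2a and Adora2b, the enzyme genes Adk and Ada, which remove adenosine, and Nt5e, which produces it outside cells. The 9 genes were taken by name from the 28358 genes in the tables. The set was built around Slc29a1, which was picked because it was lower with spironolactone in these same libraries, so its difference between the groups is described here without a test. All 9 names were in the tables, 7 of them had enough counts for the fit, Ada was too low for the filter, and Slc29a2 was listed at 0.

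Adenosine is a breakdown product of ATP that signals to neighbouring cells and damps neuronal activity. Outside cells, ectonucleotidases strip phosphates from released ATP, and CD73, the product of Nt5e, performs the last step from AMP to adenosine. Equilibrative nucleoside transporters (the SLC29 family) let adenosine pass the membrane down its gradient, adenosine kinase (Adk) and adenosine deaminase (Ada) remove it inside cells, and G protein-coupled receptors read it outside. In the retina, adenosine acts on synaptic transmission and on blood flow.

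RNA was sequenced from neuroretinas of male Goto-Kakizaki (GK) rats, a strain with inherited type 2 diabetes, aged 14 months. All animals had received an intravitreal injection of 5 µL of PLGA (degradable polymer) microspheres 2 months earlier: 3 samples came from the group with non-loaded microspheres and 3 from the group whose microspheres held 6.2 µg of spironolactone, which blocks the mineralocorticoid receptor. Uninjected or non-diabetic retinas were not analysed here, and no label ties a sample to its own animal, so the p-values rest on differences among these libraries, part of which may be technical. Libraries held between 9996198 and 12589466 expected counts. Gnat1, the rod transducin gene, measured 10069 ± 2086 CPM (read counts corrected for library size with TMM factors) in the non-loaded and 5864 ± 588 CPM in the spironolactone group (SD, n = 3 each), so the tissue carried a defining marker of rods, its main cell type. Numbers in the sample titles were lower in the whole non-loaded group than in the spironolactone group, so whatever the numbers stand for and the treatment cannot be told apart.

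Slc29a1 encodes ENT1, the main equilibrative carrier of adenosine in many cells. It measured 93.6, 94.6 and 84.5 CPM in the non-loaded libraries (replicates 1 to 3) and 64.3, 63.8 and 66.0 CPM in the spironolactone libraries. Every spironolactone library was below every non-loaded one, and the 3 spironolactone values lay close together. The group means were 90.9 ± 5.53 and 64.7 ± 1.19 CPM (SD, n = 3 each), a log2 fold change of −0.49 ± 0.07 (SE; 95% interval −0.63 to −0.35), or a level that was 1.40-fold higher without the drug. The interval takes no account of the choice of Slc29a1 on this same difference and is not a test. Per length, the level was 83.9 ± 3.44 TPM (transcript abundance corrected for length) and 60.5 ± 1.73 TPM. Across the other settings tried, the log2 fold change lay between −0.54 and −0.46. The table lists 1 transcript for Slc29a1, so a change in transcript mix cannot be read from these values.

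**Figure D1:**
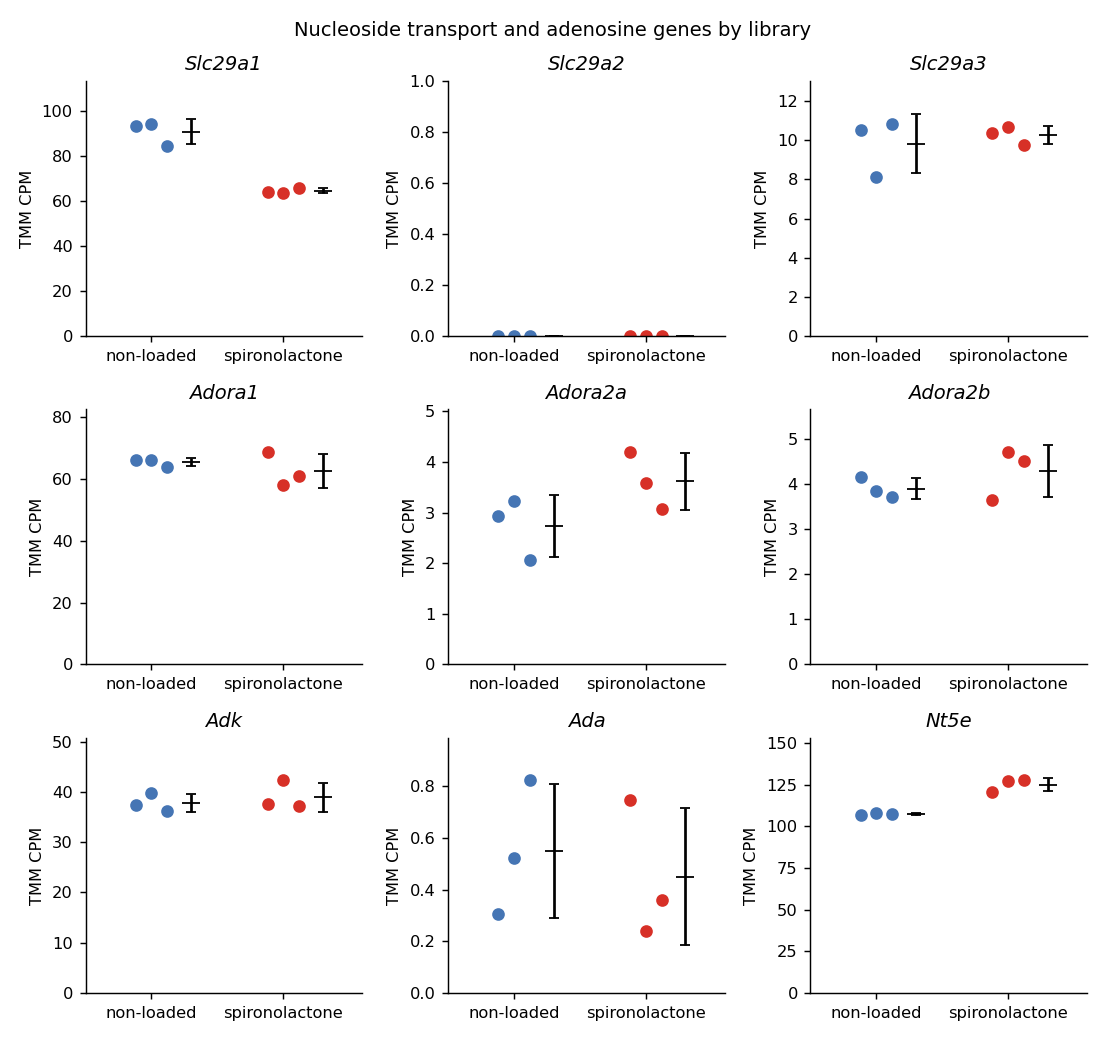
Normalised counts (TMM CPM, axes from 0) of the 9 genes in each library, with blue points for non-loaded and red points for spironolactone microspheres and black bars for the mean ± SD of 3 libraries. Slc29a1 lies at 63.8 to 66.0 CPM in the spironolactone group and 84.5 to 94.6 CPM in the non-loaded group, Nt5e shows the opposite order, the groups of the other genes overlap, and Slc29a2 is listed at 0.

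Apart from Slc29a1, which is given no test here, no transporter gene that could be tested was called. Slc29a3 encodes ENT3, a carrier of intracellular membranes such as lysosomes. It measured 10.5, 8.11 and 10.9 CPM in the non-loaded libraries and 10.4, 10.7 and 9.75 CPM in the spironolactone libraries. The groups overlapped, with non-loaded replicate 2 lowest, and the log2 fold change was 0.06 ± 0.15 (95% interval −0.26 to 0.39; edgeR quasi-likelihood test, adjusted p = 0.897). Slc29a2, which encodes the second plasma membrane carrier ENT2, was listed at 0 in all 6 libraries. The salvage gene Hprt1, which nearly all cells use, was also listed at 0 in all 6, so a 0 in these tables is given only as a listing and not as absence of the transcript. Among the 4 other nucleoside transporter genes, 2 were tested and neither passed. Slc29a4, a carrier of monoamines and adenosine, gave 15.7 ± 1.01 and 16.0 ± 1.26 CPM, with a log2 fold change of 0.03 ± 0.12 (adjusted p = 0.934). Slc28a2, a sodium-coupled purine nucleoside carrier, gave 3.34 ± 0.36 and 2.51 ± 1.01 CPM (−0.39 ± 0.30, adjusted p = 0.583).

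Nt5e, which encodes the AMP-hydrolysing surface enzyme CD73 and is known as a surface marker of young rods, was higher with spironolactone. It measured 106.8, 108.0 and 107.6 CPM in the non-loaded libraries and 120.6, 127.0 and 127.6 CPM in the spironolactone libraries. All spironolactone values were above all non-loaded values, and the non-loaded libraries differed by little. Nt5e rose from 107.5 ± 0.59 to 125.1 ± 3.91 CPM, an increase of 16.4% (log2 fold change 0.22 ± 0.06, 95% interval 0.10 to 0.34), and passed the threshold narrowly (adjusted p = 0.0499). This call was lost under 12 of 18 alternatives, with adjusted p between 0.0310 and 0.213 over all of them, while the log2 fold change stayed between 0.20 and 0.24. It was lost when any library other than spironolactone replicate 1 was left out. Without non-loaded replicates 1, 2 and 3 in turn the adjusted p was 0.166, 0.154 and 0.131, without spironolactone replicate 2 it was 0.213, and without spironolactone replicate 3 it was 0.171.

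Of the 6 tested members other than Slc29a1, Nt5e was the only one called and the only one whose groups did not overlap. Over all 13242 tested genes, 2.63% were called, 0.763% lower and 1.87% higher, and the groups did not overlap for 20.9%. The set was drawn up with results of this contrast known, so nothing is read from the share of members called.

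The stretches just upstream of Slc29a1 and Nt5e are shown because these 2 genes differed between the groups and both are known in other tissues to respond to hypoxia. They were chosen for this after their values were seen. A part of hypoxia in their differences was not tested. The sequences are the 250 bases before the annotated start, from RefSeq on the GRCr8 assembly, which is not the rn6 build named by the submitters. Slc29a1 is at chr9:22896849-22897098 and Nt5e at chr8:98150675-98150924, both on the plus strand and upstream of the annotated transcript. Capitals mark the core of the hypoxia response element, ACGTG or GCGTG on either strand.
Slc29a1: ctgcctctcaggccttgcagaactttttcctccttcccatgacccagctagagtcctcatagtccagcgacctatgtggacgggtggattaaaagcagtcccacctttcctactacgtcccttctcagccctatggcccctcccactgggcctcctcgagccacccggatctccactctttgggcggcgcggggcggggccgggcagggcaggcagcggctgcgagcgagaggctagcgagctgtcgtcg
Nt5e: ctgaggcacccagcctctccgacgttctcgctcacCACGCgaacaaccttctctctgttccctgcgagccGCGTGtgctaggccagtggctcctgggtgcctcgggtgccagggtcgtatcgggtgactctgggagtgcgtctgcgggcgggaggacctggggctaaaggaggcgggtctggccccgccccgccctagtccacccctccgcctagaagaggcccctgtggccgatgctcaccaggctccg
The Slc29a1 window held no match, and the Nt5e window held 2, whose first bases lie 215 and 180 bases before the start. Such a core is common: 36.7% of 33469 promoter windows of this length held at least 1. The cAMP response element TGACGTCA (in 1.59% of windows) and the amino acid response element TGATGCAA (0.693%), searched on both strands, had no match in either window. The same held for the corticoid receptor half-site AGAACA (17.5%). A match is a description of the letters and does not show binding. Windows were found for 8 of the 9 genes, all but Adora2a, and the hypoxia core had 3 matches for Slc29a2, of which 2 overlap, 1 each for Slc29a3, Adora2b and Ada, and 0 for Adora1 and Adk.

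The adenosine receptor genes did not pass the test. Adora1 encodes the A1 receptor, which lowers cAMP and restrains transmitter release. It measured 66.2, 65.9 and 63.9 CPM in the non-loaded libraries and 68.7, 58.1 and 60.8 CPM in the spironolactone libraries, so the groups overlapped. Its log2 fold change was −0.06 ± 0.07 (95% interval −0.22 to 0.09, adjusted p = 0.734). That interval leaves out a change as large as the estimate for Slc29a1, a gene picked on its difference. Adora2a encodes the A2a receptor, which raises cAMP. It measured 2.93, 3.23 and 2.06 CPM in the non-loaded libraries and 4.20, 3.59 and 3.07 CPM in the spironolactone libraries. The highest non-loaded value exceeded the lowest spironolactone value, and the estimate was wide (log2 fold change 0.41 ± 0.27, 95% interval −0.16 to 0.98, adjusted p = 0.504), resting on 25 to 45 counts per library. Adora2b encodes the low-affinity A2B receptor, which also raises cAMP. It measured 4.15, 3.84 and 3.70 CPM without and 3.64, 4.71 and 4.52 CPM with spironolactone. Spironolactone replicate 1 was the lowest of all 6, and the log2 fold change was 0.14 ± 0.22 (95% interval −0.33 to 0.62, adjusted p = 0.815). Adora3, the gene of the A3 receptor, was listed at 0 in all 6 libraries.

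The genes of adenosine removal also showed no call. Adk encodes the kinase that returns adenosine to AMP. It measured 37.4, 39.9 and 36.3 CPM in the non-loaded libraries and 37.5, 42.3 and 37.1 CPM in the spironolactone libraries. The groups overlapped, and the log2 fold change was 0.04 ± 0.09 (95% interval −0.14 to 0.23, adjusted p = 0.868). Ada, whose enzyme converts adenosine to inosine, had 3, 6 and 10 counts in the non-loaded libraries and 8, 3 and 4 in the spironolactone libraries. A difference in Ada was not detectable at this depth.

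**Figure D2:**
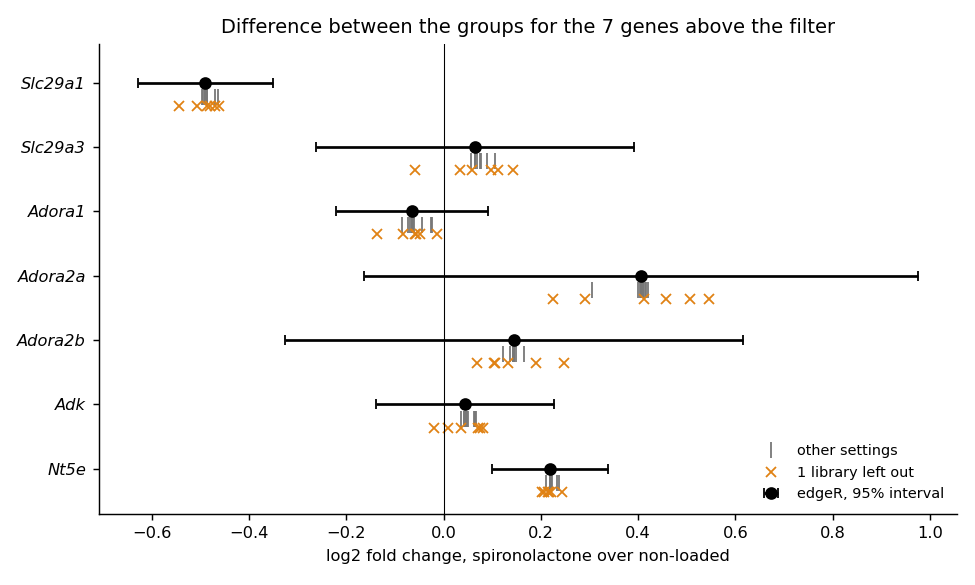
Log2 fold change of spironolactone over non-loaded microspheres for the 7 genes above the filter, with the edgeR estimate and its 95% interval (black), the other analysis settings (grey ticks) and the fits with 1 library left out (orange crosses). Slc29a1 lies between −0.54 and −0.46 and Nt5e between 0.20 and 0.24 in all of the alternatives shown, while the intervals of the other 5 genes include 0. Slc29a1 was chosen from this contrast, so its interval is not a test.

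For Adora1 and Adk the tables list 2 transcripts each, and the gene length that RSEM reports is an average weighted by their abundance. A length that differs between libraries therefore shows another estimated transcript mix, which is not necessarily a real one. The length of Adora1 was 2682, 2665 and 2618 bases in the non-loaded libraries and 2669, 2576 and 2602 bases in the spironolactone libraries. The means differed by less than the spread across libraries (2655 ± 33.3 and 2615 ± 48.0 bases; exact permutation test, two-sided, p = 0.3, where 3 against 3 allows no p below 0.1). The length of Adk lay between 1810 and 1882 bases, with means of 1849 ± 33.2 and 1839 ± 37.9 bases (exact permutation test, p = 0.9).

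Levels per length set the genes apart in 2 tiers. Slc29a1 averaged 72.2 TPM over all 6 libraries, above 80.3% of the tested genes, and Nt5e 71.0 TPM. Their order turned with the group: Slc29a1 was above Nt5e in the 3 non-loaded libraries (80.0 to 86.7 against 63.7 to 66.9 TPM) and below it in the 3 spironolactone libraries (58.5 to 61.7 against 75.8 to 77.9 TPM). This exchange restates the differences given above and is not a separate result. Slc29a1 was chosen for its lower level with spironolactone, and the Nt5e call was narrow. Adora1 (46.9 TPM) and Adk (41.4 TPM) followed. Adora1 exceeded Adk in 5 of 6 libraries. Their ranges were apart in the non-loaded group (46.2 to 48.1 against 39.9 to 40.8 TPM). In the spironolactone group they overlapped (43.2 to 51.3 against 40.8 to 45.6 TPM), so over all 6 libraries this pair was not separated beyond its spread. Far lower lay Slc29a3 (4.82 TPM), Adora2b (4.40 TPM), Adora2a (2.49 TPM) and Ada (0.74 TPM). Of these only Slc29a3 and Adora2b overlapped in range. Within the receptors, the A1 gene was above the A2B and A2a genes in all 6 libraries.

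**Figure D3:**
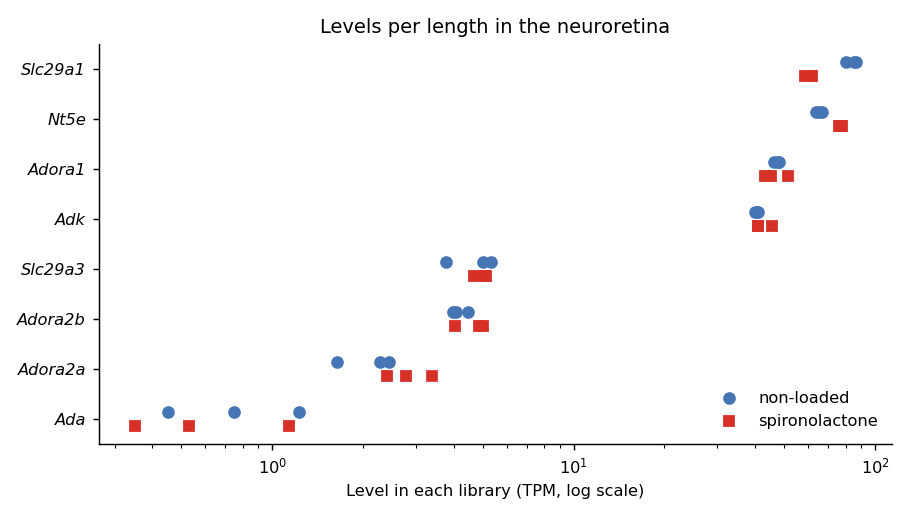
Level per length (TPM, log axis) of the 8 genes not listed at 0, in order of their mean, with 1 point per library (blue circles non-loaded, red squares spironolactone). Slc29a1, Nt5e, Adora1 and Adk lie above 39 TPM and the other 4 genes at or below 5.30 TPM, and Slc29a1 and Nt5e exchange places between the groups. Slc29a1 was chosen from this contrast, so the exchange is not a separate result.

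The surrounding pathway was covered by 102 other names, of which 100 were in the tables and 77 were tested. None of the 77 passed (edgeR, adjusted p below 0.05). At an unadjusted p below 0.05 there were 4, against 2098 of all 13242 genes, and DESeq2 and limma-voom also called 0. Over all tested genes the share called was 2.63%. The median log2 fold change was 0.01, with 39 positive and 38 negative values, against a median of 0.00 over all tested genes. The 4 genes, named after their values were seen, were Ak4, a mitochondrial adenylate kinase gene (10.4 ± 1.43 and 13.8 ± 0.84 CPM, log2 fold change 0.40 ± 0.14, adjusted p = 0.159), P2ry1, the gene of an ADP receptor (18.4 ± 0.49 and 14.8 ± 0.53 CPM, −0.32 ± 0.11, adjusted p = 0.163), Ampd3, an AMP deaminase gene (37.9 ± 2.65 and 32.6 ± 0.89 CPM, −0.22 ± 0.09, adjusted p = 0.225) and Gmps, the gene of GMP synthetase (47.1 ± 0.78 and 53.0 ± 1.28 CPM, 0.17 ± 0.07, adjusted p = 0.268).

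By role, the ectoenzymes that break down extracellular nucleotides had 6 of 11 members tested (median −0.03). The most abundant was Alpl, whose alkaline phosphatase can also turn AMP into adenosine, at 145.7 ± 6.37 and 147.4 ± 8.13 CPM (0.02 ± 0.06, adjusted p = 0.936). Bst1, which encodes an NAD-hydrolysing surface enzyme, measured 5.64 ± 0.36 and 5.28 ± 2.13 CPM (adjusted p = 0.923). Entpd1, the gene of CD39, which hands AMP to CD73 in many tissues, was below the filter (0.47 and 0.55 CPM). Its relatives Entpd2 (4.89 and 3.90 CPM, adjusted p = 0.522) and Entpd3 (5.27 and 4.64 CPM, adjusted p = 0.738) were tested without a call. Entpd1, Entpd2 and Entpd3 were named after their values were seen.

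Inside cells, 10 of 11 nucleotidase genes were tested (median 0.03). The highest per length (TPM) were Nt5c3a (72.1 ± 6.52 and 76.0 ± 7.20 CPM, 0.07 ± 0.08, adjusted p = 0.717) and Nt5c2 (67.0 ± 5.06 and 69.5 ± 5.42 CPM, 0.05 ± 0.08, adjusted p = 0.819). Of 17 names for adenosine and AMP conversion, 11 were tested (median 0.01). They include Ahcyl1, a relative of the adenosine-releasing S-adenosylhomocysteine hydrolase, at 345.6 ± 10.1 and 348.8 ± 16.9 CPM (0.01 ± 0.06, adjusted p = 0.945), and the adenylate kinase gene Ak6 (0.07 ± 0.10, adjusted p = 0.773). The salvage and breakdown list had 14 of 18 tested (median −0.01), with the uridine-cytidine kinase genes Uckl1 (0.09 ± 0.06, adjusted p = 0.532) and Uck1 (−0.08 ± 0.07, adjusted p = 0.637) most abundant.

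Genes that build purines and pyrimidines anew had 19 of 20 tested (median −0.03). Impdh1, the gene of the rate-limiting enzyme of GTP synthesis that photoreceptors depend on, measured 384.1 ± 18.9 and 367.5 ± 15.3 CPM (−0.06 ± 0.06, adjusted p = 0.660), and Prpsap2, a regulator of phosphoribosyl pyrophosphate synthesis, 81.8 ± 5.60 and 80.4 ± 6.50 CPM (adjusted p = 0.919). For ATP release and its P2 receptors 15 of 20 were tested (median 0.06). The pannexin gene Panx2 measured 75.0 ± 2.93 and 71.0 ± 1.29 CPM (−0.08 ± 0.06, adjusted p = 0.609), and P2rx4, the gene of an ATP-gated channel, 15.6 ± 0.72 and 16.9 ± 2.02 CPM (0.12 ± 0.12, adjusted p = 0.692). A p that misses the threshold does not show that these levels were equal.

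**Figure D4:**
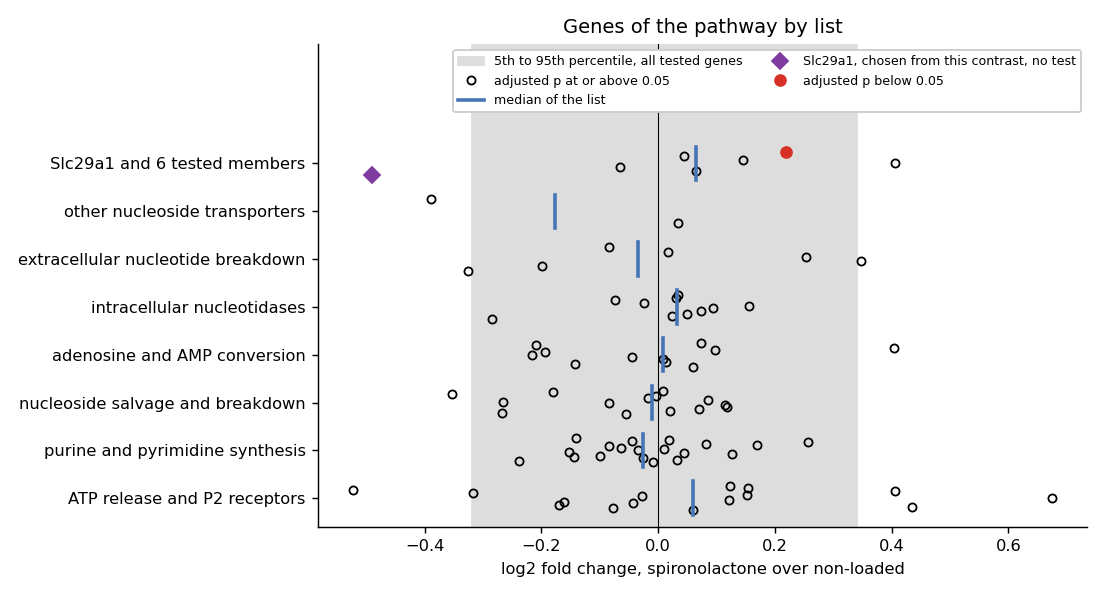
Log2 fold change of spironolactone over non-loaded microspheres for Slc29a1, the 6 tested members and the 77 tested genes of 7 pathway lists, 1 point per gene, with each list's median in blue and the 5th to 95th percentile of all tested genes in grey (−0.32 to 0.34). The diamond is Slc29a1, which was chosen from this contrast and carries no test (−0.49), and the filled point is Nt5e (0.22), the only tested point with an adjusted p below 0.05.

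In bulk tissue, fewer cells of a type and less RNA per cell cannot be told apart. Some markers of several cell types were called in the same comparison in which Slc29a1 and Nt5e differed. Outside the rod list, each list with a call had only 1 called gene. Over all tested genes, 0.763% were called lower and 1.87% higher. Rod markers had 4 of 10 genes lower (Gnat1, Pde6g, Nr2e3 and Rom1), and their summed level was 22948 to 27858 CPM in the non-loaded and 19828 to 21614 CPM in the spironolactone libraries. Gnat1 was the largest part of these sums, with a log2 fold change of −0.78. The abundant rod genes Pde6a (−0.08) and Sag (0.08) were not called. Over the 10 rod genes, 9 log2 fold changes were negative and 1 positive (median −0.19). Red blood cells and endothelium are known to carry ENT1. The summed level of 5 erythrocyte markers was 86.4 to 105.2 CPM without and 86.8 to 156.9 CPM with spironolactone. Of 2 tested erythrocyte genes, 1 was higher (Hba-a2, whose groups overlapped). The summed level of 8 endothelial markers was 915.1 to 982.2 and 859.0 to 987.9 CPM, with 1 of 8 higher (Vwf). Most of this sum was Kdr, with means of 784.3 and 750.0 CPM. Over the 8 endothelial genes, 3 log2 fold changes were positive and 5 negative (median −0.06). For 9 pigment epithelium markers the sums were 99.1 to 126.0 and 48.2 to 113.8 CPM, with 0 of 7 tested genes called (2 at an unadjusted p below 0.05), and spironolactone replicate 3 was lowest. Over the 7 tested pigment epithelium genes, 6 log2 fold changes were negative and 1 positive (median −0.44). For 4 astrocyte markers the sums were 190.6 to 197.5 and 147.0 to 173.6 CPM, with 1 of 3 tested lower (Gfap).

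Of 10 Müller glia markers 1 was lower (Crym), and the sums were 8445 to 8633 and 8310 to 8530 CPM. The lists for ganglion cells, bipolar cells, amacrine and horizontal cells, cones, pericytes and microglia had 0 calls in edgeR (at an unadjusted p below 0.05, 2 cone genes, 2 amacrine and horizontal cell genes and 0 of the other 4 lists). In these lists only Otx2 was listed at 0 in all 6 libraries. The part of these cell types in the Slc29a1 and Nt5e results was not tested.

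The 5 genes whose profile over the 6 libraries was most like that of Slc29a1 were Dennd2c, Dedd2, Dnah2, Frmd8 and Ccng1. Likeness was the root mean square difference between log2 CPM profiles, each centred on its own mean, over 12552 named genes. It was 0.035 for Dennd2c (46.95 to 55.4 CPM without and 36.95 to 38.1 CPM with spironolactone), which encodes a regulator of Rab GTPases. It was 0.041 for Dedd2, a death effector domain gene (40.0 to 46.7 and 31.9 to 33.1 CPM), and 0.041 for the dynein gene Dnah2, which was near the filter (1.23 to 1.42 and 0.72 to 0.84 CPM). Before the log 0.5 CPM was added, which shrinks differences of such low genes. In the edgeR fit the log2 fold change of Dnah2 was −0.76 ± 0.39 (adjusted p = 0.363), against −0.49 for Slc29a1. Likeness was 0.049 for Frmd8 (31.6 to 35.3 and 23.1 to 23.8 CPM) and 0.057 for the cyclin gene Ccng1 (371.0 to 420.9 and 274.4 to 296.5 CPM). In all 5 the spironolactone libraries were below the non-loaded ones, which the choice by likeness to Slc29a1 fixes.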

How the data were processed

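RNA-seq was analysed in 6 neuroretina samples, grouped by the treatment field of the labels. The submitters' processing notes name FastQC, Trimmomatic, STAR 2.5.3a, RSEM 1.2.28 and rn6; for their roles, the annotation release and strand use, no detail is given in the sources used here. Without strand, reads of overlapping genes cannot be told apart. Per the file headers, the authors deposited RSEM tables with expected counts per gene, unnormalised, with TPM, corrected for length and depth, and with gene lengths (other values, in bases).

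Expected counts were rounded (0.437% to 0.469% of values were fractional). Genes passing filterByExpr (13242) were tested with edgeR 4.0.16 in R 4.3.3 (TMM, glmQLFit, glmQLFTest, two-sided), Benjamini-Hochberg over all tested genes, threshold 0.05. Intervals are 95%, and the SE is the log2 fold change over the root of F. Alternatives used DESeq2 1.42.0, limma 3.58.1, other scalings and filters, effective lengths, log2(TPM + 1), log2(TPM + 0.1) and left-out libraries. In simulated data (3 draws, 13205 genes in the first) 44.7% of 1.25-fold, 92% of 1.5-fold and 100% of 2-fold changes were recovered, and 7% of calls were false. Changes were placed only in genes with a mean log2 CPM above 3. The recovered shares therefore do not hold for lower genes such as Adora2a and Adora2b.

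Named genes are the 9 members, called genes and the 2 most abundant of each list, and the 5 profiles nearest Slc29a1 (log2 of CPM + 0.5). Members and lists were chosen with earlier results of these data known. Some genes are not reported here.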

Additional observations from a re-analysis of the deposited data

How the results depend on the processing

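The log2 fold change of Slc29a1, given with no test because the gene was chosen on it, lay between −0.54 and −0.46. Over 18 alternatives each, Adora1, Adora2a and Adora2b kept their direction and were not called. DESeq2 gave no adjusted p for Adora2a, Adora2b and Slc29a3, which was counted as not called. Nt5e kept its direction and lost its call in 12. The number of members called higher, 1 in the main analysis, was 0 with RLE factors (Nt5e adjusted p = 0.0515), upper quartile factors (0.0603), library totals (0.0525), limma-voom (0.0564), effective lengths (0.0615), log2(TPM + 1) (0.123) and log2(TPM + 0.1) (0.123), and between 0 and 1 with 1 library left out; the cause was not tested. Slc29a3 changed sign without non-loaded replicate 2 (range with 1 library left out −0.0597 to 0.144) and Adk without spironolactone replicate 2 (−0.0205 to 0.0813), neither being called. The number of other pathway genes called stayed at 0 in every alternative run. Calls over all genes, 247 higher and 101 lower, became 439 and 163 with no filter (17468 genes tested), 82 and 18 on log2(TPM + 1), 79 and 16 on log2(TPM + 0.1), 416 and 177 at an adjusted p below 0.1, and 81 to 421 and 30 to 200 with 1 library left out. Medians over all genes moved by less than 0.1 on the log2 scale. No paired analysis was possible because the numbers in the sample titles are not shared between the groups. Replicates 1 to 3 follow the order of these numbers within each group and pair no samples. Depth limits Ada and Adora2a most.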
